A study of Homo sapiens with 75 samples.

Results

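The comparison described here follows the response of U2OS cells to ionising radiation between 3 h and 6 h: 3 arrays of cells harvested 6 h after 5 Gy against 3 arrays of cells harvested 3 h after 5 Gy. These 6 arrays, of 75 in the series, were taken by the cell line, treatment and time in their labels. U2OS is a human osteosarcoma line with wild-type p53. The other 9 U2OS arrays are mock-irradiated controls at 6 h, 3 h and 0 h, with 3 arrays each. The lymphoblastoid line TK6 and the skin fibroblast line BJ, each with 3 irradiated arrays at 6 h and 3 at 3 h after the same dose, served to ask whether the U2OS change differed from that of another line. Total RNA was hybridised to Affymetrix expression arrays, so every value below is a log2 probe set signal, a relative level that cannot be compared between genes. The labels number the replicates but do not say that they are separate cultures, so p-values measure the spread between arrays, which may be technical.

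Ionising radiation breaks both DNA strands, and the kinases ATM and CHK2, activated in response to the breaks, stabilise p53. p53 then switches on genes for cell cycle arrest (CDKN1A), for its own shutdown (MDM2), for DNA repair (XPC, DDB2) and for cell death (FAS, BAX). Irradiated cells also stop in G2, and through p21, RB family proteins and the DREAM complex the genes for mitosis are turned down.

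Of 7 osteoblast markers measured, 3 were highest in U2OS among the 5 lines of the series. SPP1 read 8.83 log2 in U2OS and at most 7.91 log2 elsewhere, but RUNX2 read 8.04 log2 in U2OS and 9.17 log2 in the arrays labelled HepG2, and SP7 (2.89 log2), ALPL (3.36 log2) and DLX5 (3.20 log2) lay below the level limit of 3.52 log2 used for testing. None of 7 melanocyte, 10 B lymphoid and 12 fibroblast markers was highest in U2OS, whereas 5 of 10 hepatocyte markers were. Of these 5 only SERPINA1 stood well above the other lines, at 8.57 log2 against at most 3.56 log2. APOA1 read 4.27 log2 against at most 4.21 log2 elsewhere, and CYP3A4 5.65 log2 against at most 5.63 log2. APOB (3.08 log2) and FGB (2.94 log2) lay below the level limit. ALB, the hepatocyte's albumin gene, read 2.85 log2 in U2OS and 2.77 log2 in the arrays labelled HepG2, a hepatoma line, which enter here through the spread in the fit of all arrays. Replicate 1 stood apart in 3 U2OS groups. The difference between 5′ and 3′ control probe sets of ACTB, a measure of RNA integrity, was -0.37 log2 in irradiated 6 h replicate 1 and -0.42 log2 in untreated 6 h replicate 1, against -0.92 to -1.13 log2 in the other 4 arrays at 6 h. Untreated 3 h replicate 1 had the lowest upper quartile of the 15 arrays (5.88 log2). The part of these arrays in the results was not tested, but the counts of called genes below are also given without replicate 1 of every U2OS group, a setting chosen after the data were seen.

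Of 14654 genes tested, 8 rose (0.0546%) and 1 fell (0.00682%) at 6 h relative to 3 h (limma, Benjamini-Hochberg adjusted p under 0.05). The genes that rose were KITLG, ATOSA, PCDH17, PARD6G, FAS, DGKA, ANKRD20A12P and CEP76, and KIF20A fell. Fitted with replicate as a block, 52 genes rose (0.355%) and 13 fell (0.0887%), all 9 above among them. Without replicate 1 of every U2OS group, 84 rose (0.573%) and 56 fell (0.382%), again with all 9. After quantile normalization of the arrays 16 rose and 14 fell, a more even split than the main one. Leaving out the same-numbered array of both groups left 0 calls for each number, as did leaving out irradiated 6 h replicate 1, irradiated 6 h replicate 3 or irradiated 3 h replicate 3 alone, against 670 genes at an unadjusted p under 0.05 with all arrays. On the looser measure of complete separation, all 3 arrays at 6 h lay above all 3 at 3 h for 1217 genes (8.3%) and below them for 823 (5.62%).

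KITLG, which encodes stem cell factor, the ligand of the receptor KIT, rose most. Its signal was 8.61, 8.53 and 8.48 log2 in the irradiated 6 h arrays, against 6.82, 6.97 and 6.82 log2 in the irradiated 3 h arrays. The groups are far apart and tight within. The difference of 1.67 log2 (SE 0.26, adjusted p = 0.0199) is 3.18-fold. FAS, the death receptor that triggers caspase 8, read 9.57, 9.07 and 9.18 log2 at 6 h and 8.44, 7.64 and 7.97 log2 at 3 h after irradiation. All 3 arrays at 6 h exceeded the highest at 3 h, and the difference was 1.26 log2 (SE 0.22, adjusted p = 0.0355). Both genes are on the list of p53 targets, and both stood above the mock-irradiated arrays of the same time, by 2.15 log2 (KITLG) and 1.86 log2 (FAS) at 6 h. At 3 h those differences were 1.09 log2 for KITLG and 0.92 log2 for FAS. Untreated cells also differed between 6 h and 3 h, by 0.61 log2 for KITLG and 0.32 log2 for FAS (adjusted p = 0.642 and 0.643).

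PCDH17, a protocadherin of cell adhesion, read 7.60, 7.0 and 7.62 log2 in the irradiated 6 h arrays, against 5.98, 5.90 and 5.93 log2 in the irradiated 3 h arrays. The 3 h arrays sat at the level of the controls. PCDH17 was 1.24 log2 above the untreated arrays at 6 h and 0.06 log2 above them at 3 h, and its rise was 1.47 log2 (SE 0.21, adjusted p = 0.0183). DGKA, the kinase that turns diacylglycerol into phosphatidic acid, read 7.80, 7.50 and 7.70 log2 at 6 h and 6.16, 6.61 and 6.51 log2 at 3 h after irradiation, a rise of 1.24 log2 (SE 0.20, adjusted p = 0.0199). Over untreated arrays it differed by 1.48 log2 at 6 h and by 0.16 log2 at 3 h.

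PARD6G, a scaffold of the cell polarity complex, read 9.11, 8.77 and 8.85 log2 at 6 h and 8.05, 7.25 and 7.58 log2 at 3 h after irradiation. It rose by 1.28 log2 (SE 0.21, adjusted p = 0.0203), and replicate 1 was the highest array of both groups. A second, dimmer probe set of PARD6G differed by 0.29 log2. The pseudogene ANKRD20A12P read 7.96, 8.05 and 7.96 log2 at 6 h and 6.69, 7.11 and 6.89 log2 at 3 h, a rise of 1.09 log2 (SE 0.18, adjusted p = 0.0201). It belongs to a family of near-identical copies, so its probe set may read more than 1 locus, and a second probe set of it differed by 0.38 log2.

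ATOSA read 6.80, 6.27 and 6.49 log2 at 6 h and 5.12, 4.63 and 5.07 log2 at 3 h after irradiation, a rise of 1.58 log2 (SE 0.24, adjusted p = 0.0199). CEP76, a centriolar protein, read 9.82, 9.63 and 9.73 log2 at 6 h and 8.95, 8.81 and 8.76 log2 at 3 h, a rise of 0.89 log2 (SE 0.15, adjusted p = 0.0201). Neither pair of irradiated groups overlaps. The untreated 6 h minus 3 h difference was 0.64 log2 for ATOSA and 0.45 log2 for CEP76, and neither of these passed the test (adjusted p = 0.642 for both).

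**Figure D1:**
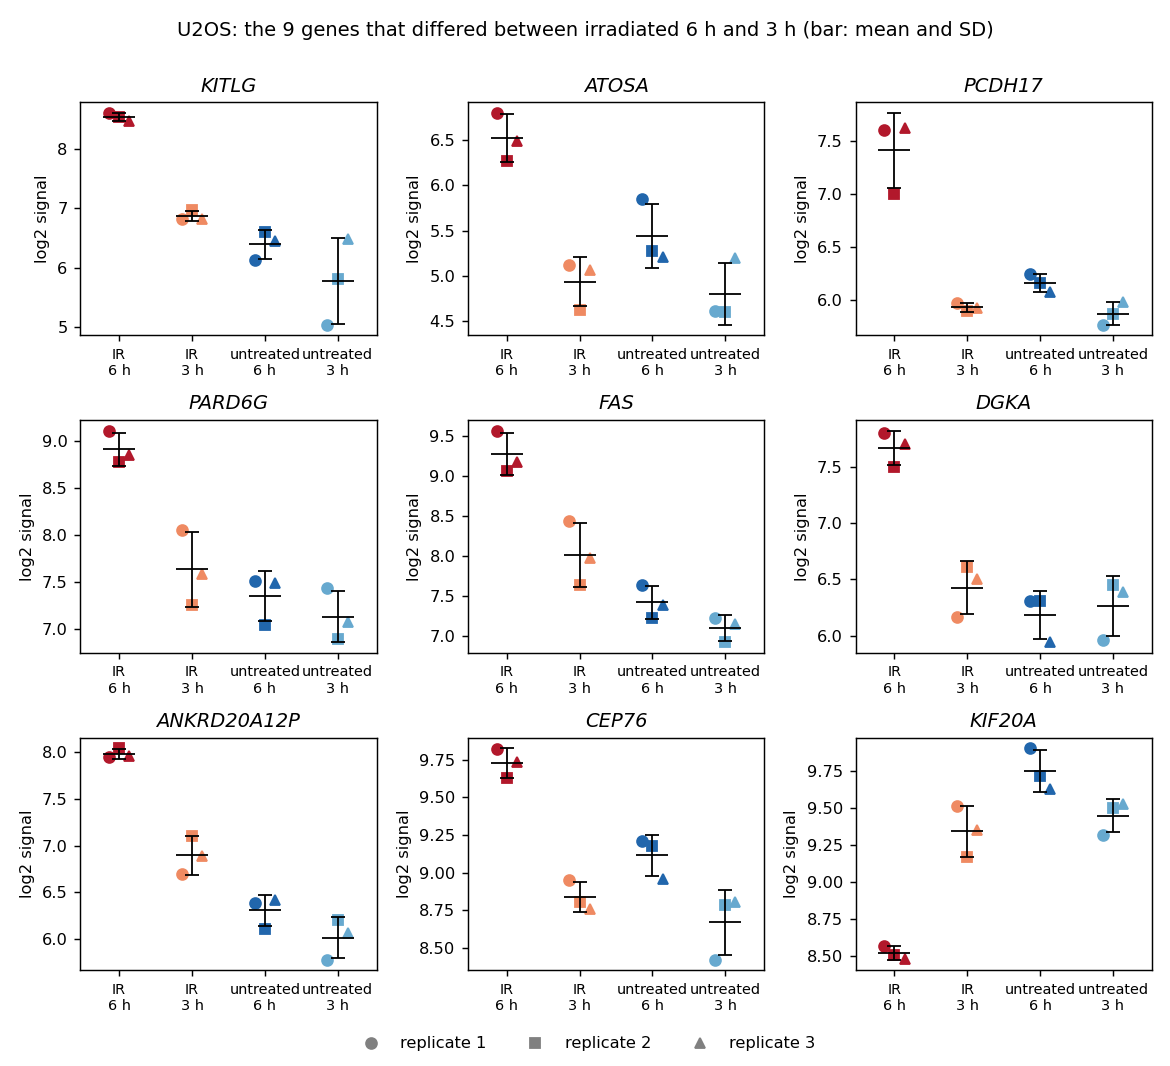
Log2 signal per array (y axis) of the 9 genes that passed the test, in irradiated (IR) 6 h, irradiated 3 h, untreated 6 h and untreated 3 h U2OS cells (x axis). Marker shape gives the replicate number, and bars give the mean and SD of 3 arrays. In every panel the 3 irradiated 6 h arrays lie on one side of the 3 irradiated 3 h arrays: KITLG averages 8.54 log2 at 6 h and 6.87 log2 at 3 h, and KIF20A 8.52 log2 at 6 h and 9.35 log2 at 3 h.

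KIF20A, a kinesin of the central spindle needed for cytokinesis, was the gene that fell. It read 8.57, 8.51 and 8.48 log2 in the irradiated 6 h arrays, against 9.51, 9.17 and 9.35 log2 in the irradiated 3 h arrays. The 6 h arrays lie below every other U2OS array, since untreated cells ranged between 9.63 and 9.91 log2 at 6 h and between 9.32 and 9.53 log2 at 3 h. The fall was -0.82 log2 (SE 0.14, adjusted p = 0.0201). The untreated 6 h minus 3 h difference was 0.30 log2, and the irradiated difference less the untreated one, the interaction, was -1.13 log2 (SE 0.19, adjusted p = 0.199). With the replicate block that interaction was the only one of 14654 past the threshold (adjusted p = 0.0468).

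KIF20A is 1 of 77 genes on the list of G2 and mitosis genes, which was drawn up with earlier results of these data known. All 77 were tested. Of them 67 were lower and 10 higher at 6 h than at 3 h after irradiation, 35 with no overlap between the arrays below and 1 above, against 5.62% and 8.3% of all genes. The median difference was -0.27 log2, beside 0.02 log2 over all genes. In untreated cells the median of the same genes was 0.22 log2, beside 0.14 log2 over all genes, and without untreated 3 h replicate 1 these were 0.11 and 0.03 log2. Relative to untreated 0 h, the mean level of the list was -0.58, -0.62 and -0.62 log2 in the irradiated 6 h arrays and -0.28, -0.42 and -0.29 log2 in the irradiated 3 h arrays. With the replicate block 6 members fell: KIF20A, AURKA, PLK1, CCNB1, BUB1 and CDCA3. Without replicate 1 of every U2OS group 16 fell, those 6 among them.

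The promoters of these 6 genes are shown because promoters of mitotic genes commonly hold 2 short elements, the CHR, bound by the DREAM complex, and the CCAAT box, bound by NF-Y. RefSeq windows of GRCh38.p14, from 250 bases before to 50 after the annotated start, were at hand for 5 of the 6 (AURKA is named only). They are printed 5′ to 3′ on the gene's own strand, with matches in capitals. Searched were TTTGAA and TTCGAA as CHR and CCAAT as the box, each on both strands, so TTCAAA and ATTGG also count.
KIF20A: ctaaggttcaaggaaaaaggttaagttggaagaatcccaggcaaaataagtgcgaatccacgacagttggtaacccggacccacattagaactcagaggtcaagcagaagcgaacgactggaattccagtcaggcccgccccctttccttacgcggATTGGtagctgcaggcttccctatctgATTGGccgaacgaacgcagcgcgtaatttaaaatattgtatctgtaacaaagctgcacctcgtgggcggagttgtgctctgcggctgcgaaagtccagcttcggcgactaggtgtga
PLK1: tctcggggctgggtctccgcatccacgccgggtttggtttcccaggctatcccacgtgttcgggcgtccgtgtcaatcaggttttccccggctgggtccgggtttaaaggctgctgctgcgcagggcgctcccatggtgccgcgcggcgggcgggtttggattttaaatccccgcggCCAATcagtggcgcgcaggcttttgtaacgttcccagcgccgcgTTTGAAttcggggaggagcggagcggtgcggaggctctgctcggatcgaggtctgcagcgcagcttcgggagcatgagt
CCNB1: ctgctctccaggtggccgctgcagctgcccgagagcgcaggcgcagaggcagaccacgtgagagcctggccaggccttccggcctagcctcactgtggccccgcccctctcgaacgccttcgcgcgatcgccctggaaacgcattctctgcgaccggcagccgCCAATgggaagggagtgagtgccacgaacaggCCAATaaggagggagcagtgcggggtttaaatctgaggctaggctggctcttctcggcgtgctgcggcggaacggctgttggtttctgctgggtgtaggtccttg
BUB1: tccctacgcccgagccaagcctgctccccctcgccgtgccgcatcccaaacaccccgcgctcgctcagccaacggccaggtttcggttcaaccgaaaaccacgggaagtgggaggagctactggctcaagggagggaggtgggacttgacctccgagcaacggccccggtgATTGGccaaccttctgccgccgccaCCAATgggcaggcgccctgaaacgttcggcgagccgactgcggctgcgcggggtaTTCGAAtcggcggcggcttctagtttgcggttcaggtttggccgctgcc
CDCA3: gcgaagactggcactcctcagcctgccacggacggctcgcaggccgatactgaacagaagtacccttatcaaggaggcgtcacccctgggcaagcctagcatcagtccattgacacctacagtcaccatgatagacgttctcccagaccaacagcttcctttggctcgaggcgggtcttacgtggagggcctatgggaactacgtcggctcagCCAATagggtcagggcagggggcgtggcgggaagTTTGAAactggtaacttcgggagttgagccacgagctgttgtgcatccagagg
The windows are chr5:138178862-138179161 (plus strand) for KIF20A, chr16:23678639-23678938 (plus strand) for PLK1, chr5:69166900-69167199 (plus strand) for CCNB1, chr2:110678014-110678313 (minus strand) for BUB1 and chr12:6851237-6851536 (minus strand) for CDCA3. All 5 hold a CCAAT box, and PLK1, BUB1 and CDCA3 also hold a CHR match. Other letters were not searched as CHR, so the lack of a match in KIF20A and CCNB1 does not show that they lack the element. In PLK1 the CHR match begins at base -29 and the box at base -73, counted from the start site as 1. In CDCA3 the CHR match begins at base -3 and the box at base -37. Of the 65 list members with a window, 49 hold a CHR match (75.4%), 47 a CCAAT box (72.3%) and 39 both (60.0%). Among all 27305 promoters of the table the shares were 16.6%, 35.7% and 6.58%. The 32 members with a window whose arrays separated downward had shares of 68.8%, 78.1% and 62.5%, close to those of the whole list.

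The mitotic kinases were among the members with the largest differences. PLK1, which drives mitotic entry and spindle assembly, read 7.48, 7.89 and 7.72 log2 at 6 h and 8.39, 8.68 and 8.43 log2 at 3 h after irradiation. The groups do not overlap, and the difference of -0.80 log2 (SE 0.19) had adjusted p = 0.182 without the block and 0.0272 with it. AURKA, the centrosomal kinase that activates PLK1, read 9.16, 9.23 and 9.21 log2 at 6 h and 9.79, 9.92 and 9.88 log2 at 3 h. Its difference was -0.66 log2 (SE 0.14, adjusted p = 0.146 without the block and 0.0133 with it). BUB1, a kinase of the spindle checkpoint, differed by -0.61 log2 (SE 0.13, adjusted p = 0.169 without and 0.0416 with the block), with all arrays at 6 h below those at 3 h, and its 2 dimmer probe sets differed by -0.09 and -0.31 log2. Of the 12 kinases and passenger proteins 7 separated downward, whereas AURKB (0.04 log2) and BIRC5 (0.14 log2), both of the chromosomal passenger complex, overlapped.

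Cyclin B1, encoded by CCNB1, is the partner of CDK1 at mitotic entry. CCNB1 read 10.56, 10.85 and 10.72 log2 at 6 h and 11.31, 11.20 and 11.26 log2 at 3 h after irradiation, a difference of -0.55 log2 (SE 0.12, adjusted p = 0.169 without and 0.0360 with the block). The irradiated arrays differed from the untreated ones by -0.63 log2 at 6 h and by 0.02 log2 at 3 h. CCNA2 (-0.62 log2), CCNB2 (-0.40 log2), CDC25C (-0.42 log2) and CKS2 (-0.37 log2) also separated downward. A dimmer probe set of CCNB2 above the level limit differed by 0.13 log2. CDK1 itself differed by -0.17 log2 and its arrays overlapped, as did those of FOXM1, a transcription factor of mitotic genes (0.08 log2).

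Other members differed by role. Of 12 kinesin motors all 12 were lower and 6 separated, among them CENPE, the kinetochore motor, at -0.71 log2. Its arrays read 7.37, 7.19 and 7.30 log2 at 6 h and 8.03, 7.86 and 8.10 log2 at 3 h (SE 0.17, adjusted p = 0.196). Of 15 spindle and cytokinesis genes 10 separated downward, led by GAS2L3 (-0.68 log2), ASPM (-0.57 log2) and DLGAP5 (-0.55 log2). The kinetochore and centromere group had the median closest to 0, at -0.10 log2, and 2 of 14 separated downward (NDC80 and CENPF). HJURP, the chaperone of the centromeric histone CENPA, was the single member to separate upward, by 0.29 log2 (adjusted p = 1). Among 13 genes of anaphase and chromosome condensation CDCA3 (-0.60 log2, adjusted p = 0.197 without and 0.0426 with the block) and CDC20 (-0.56 log2), the activator of the anaphase-promoting complex, stood lowest, while TOP2A (-0.05 log2) and MKI67 (-0.06 log2) overlapped.

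The p53 target list holds 71 genes, of which 64 were tested. Of these, 2 rose (KITLG and FAS), and with the replicate block 12 rose and 0 fell. Without replicate 1 of every U2OS group 20 rose and 0 fell, among them 8 of the 10 that the block added. Of the 64, 57 were higher and 7 lower at 6 h than at 3 h after irradiation, 36 with no overlap between the arrays above and 1 below, against 8.3% and 5.62% of all genes. The median difference was 0.50 log2, and that of the same genes in untreated cells was 0.23 log2, or 0.13 log2 without untreated 3 h replicate 1. The mean level of the list stood 1.10, 0.85 and 0.90 log2 above untreated 0 h in the irradiated 6 h arrays, and 0.58, 0.36 and 0.41 log2 above it in the irradiated 3 h arrays. The groups do not overlap on this scale, and replicate 1 is the highest array in both irradiated groups.

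**Figure D2:**
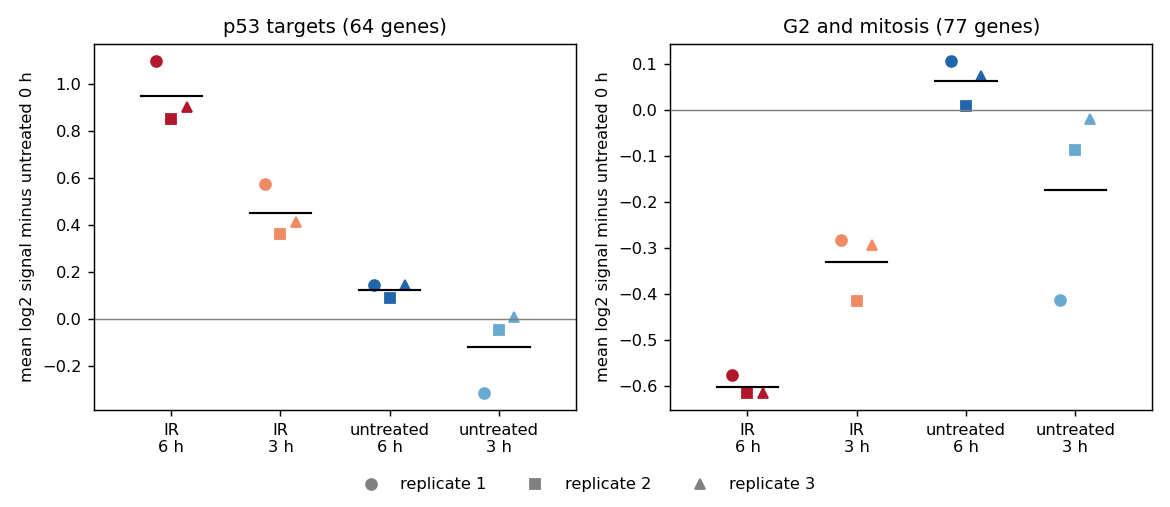
Mean log2 signal of the tested p53 targets (left, 64 genes) and G2 and mitosis genes (right, 77 genes) in each array, minus the mean of the untreated 0 h arrays (y axis), for irradiated (IR) 6 h, irradiated 3 h, untreated 6 h and untreated 3 h U2OS cells (x axis). Marker shape gives the replicate number and the line the mean of 3 arrays. The p53 targets read 1.10, 0.85 and 0.90 log2 at 6 h and 0.58, 0.36 and 0.41 log2 at 3 h after irradiation, and untreated 3 h replicate 1 is the lowest array on the left panel (-0.32).

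Most of the p53 targets that the list groups as p53 feedback were higher at 6 h. MDM2, the ubiquitin ligase that degrades p53, read 8.94, 9.07 and 9.03 log2 at 6 h and 8.27, 7.87 and 8.08 log2 at 3 h after irradiation. The difference of 0.94 log2 (SE 0.19) had adjusted p = 0.132 without the block and 0.0132 with it. Of its 7 probe sets above the level limit 5 were higher. SUSD6 read 8.91, 8.51 and 8.54 log2 at 6 h and 7.99, 7.59 and 7.75 log2 at 3 h, a difference of 0.87 log2 (SE 0.18, adjusted p = 0.123 without and 0.0113 with the block). Of the 8 genes of this group 7 separated upward, PPM1D, the phosphatase that reverses ATM signalling, by 0.44 log2, and AEN (-0.16 log2) overlapped. The group name is a label of the list, and an action of each member on p53 was not tested.

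All 5 genes of DNA repair and nucleotide supply separated upward. XPC, the damage sensor of nucleotide excision repair, read 8.80, 8.50 and 8.38 log2 at 6 h and 7.71, 7.85 and 7.88 log2 at 3 h after irradiation, a difference of 0.75 log2 (SE 0.16, adjusted p = 0.169 without and 0.0366 with the block). DDB2, which works with XPC, differed by 0.68 log2 (SE 0.16, adjusted p = 0.188 without and 0.0416 with the block). The translesion polymerase gene POLH (0.90 log2), the ribonucleotide reductase subunit RRM2B (0.56 log2) and the helicase ASCC3 (0.61 log2) did not pass with or without the block, although POLH passed without replicate 1 of every group (adjusted p = 0.00322).

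Of the p53 targets, the secreted and membrane proteins had the highest median, 0.70 log2. TGFA, a ligand of the EGF receptor, read 6.08, 5.63 and 5.86 log2 at 6 h and 5.10, 3.75 and 4.35 log2 at 3 h after irradiation. The 3 h arrays are spread over more than a log2 unit, yet all lie below the 6 h arrays, and the difference of 1.46 log2 (SE 0.28) had adjusted p = 0.0674 without the block and 0.00124 with it. This rests on 1 probe set: the other 2 of TGFA above the level limit differed by 0.01 and -0.02 log2. ASTN2 read 6.28, 5.69 and 5.93 log2 at 6 h and 4.82, 4.21 and 4.96 log2 at 3 h. Its difference was 1.30 log2 (SE 0.27, adjusted p = 0.132 without and 0.0101 with the block). ASTN2 did not pass without replicate 1 of every group (adjusted p = 0.123). TLR3, a receptor of double-stranded RNA, NINJ1, which ruptures the membrane of dying cells, and CYFIP2 rose with the block, by 1.04, 0.69 and 0.76 log2 (adjusted p = 0.0137, 0.0443 and 0.0408). NINJ1 and CYFIP2 also passed without replicate 1 of every group (adjusted p = 0.0135 and 0.00195), and TLR3 did not (0.0983). CSF1 (0.05 log2) and CD82 (-0.05 log2) overlapped.

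Among cell death genes, BAX, the pore former of the mitochondrial membrane, read 8.37, 8.11 and 7.87 log2 at 6 h and 7.10, 7.32 and 7.51 log2 at 3 h after irradiation. The groups do not overlap, and the difference of 0.81 log2 (SE 0.24) did not pass (adjusted p = 0.514). TP53I3 differed by 0.54 log2 (SE 0.13, adjusted p = 0.196, and 0.00975 without replicate 1 of every group), and the death receptor gene TNFRSF10B by 0.37 log2. Of the 11 metabolism and autophagy genes DRAM1, a lysosomal membrane protein, stood highest at 0.83 log2 (SE 0.20, adjusted p = 0.196, and 0.0118 without replicate 1 of every group), and TIGAR, which lowers glycolytic flux, was 0.50 log2 higher. SPATA18 was the single p53 target to separate downward (-0.18 log2, adjusted p = 1).

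Of the 13 growth arrest genes 7 separated upward. TP53INP1, a partner of p53 in stress, read 9.22, 8.53 and 8.41 log2 at 6 h and 8.36, 7.27 and 7.69 log2 at 3 h after irradiation. The lowest array at 6 h lies just above the highest at 3 h, and the difference of 0.95 log2 (SE 0.30) had adjusted p = 0.611 without the block and 0.0196 with it, beside 0.20 log2 in a second, dimmer probe set. The RNA-binding zinc finger gene ZMAT3 (0.77 log2, adjusted p = 0.304) and PHLDA3 (0.51 log2, adjusted p = 0.629) did not pass.

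CDKN1A and GDF15 stood above the controls at both times. CDKN1A, which encodes the CDK inhibitor p21, read 11.25, 11.11 and 11.18 log2 at 6 h and 11.14, 10.83 and 10.74 log2 at 3 h after irradiation. The arrays overlap, and the difference of 0.28 log2 (SE 0.15) did not pass (adjusted p = 1), while without replicate 1 of every group it was 0.36 log2 and passed (adjusted p = 0.0311). It stood 1.41 log2 above untreated cells at 6 h and 1.33 log2 above them at 3 h. GDF15, a secreted stress cytokine, read 7.29, 6.58 and 6.36 log2 at 6 h and 6.31, 6.07 and 5.73 log2 at 3 h. Its difference of 0.70 log2 (SE 0.26, adjusted p = 0.939) stood beside 0.66 log2 in untreated cells, so that the distance to untreated was 2.81 log2 at 6 h and 2.76 log2 at 3 h. The distance to untreated of GADD45A was 0.97 log2 at 6 h and 0.98 log2 at 3 h, that of the stress-induced transcription factor ATF3 1.93 log2 at 6 h and 1.97 log2 at 3 h, and that of SESN2 1.04 log2 at 6 h and 1.25 log2 at 3 h. These distances share the irradiated arrays with the 6 h against 3 h comparison.

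In the mock-irradiated cells, 6 h against 3 h gave 0 calls by limma, with 1068 genes at an unadjusted p under 0.05 and a median of 0.14 log2 over all genes. Without untreated 3 h replicate 1 that median was 0.03 log2. The test of the difference between the irradiated and untreated changes gave 0 calls as well (371 genes at an unadjusted p under 0.05), so of the 9 genes none is shown to change differently from the untreated cells without the block. The interaction was largest among the 9 for DGKA (1.32 log2, SE 0.28, adjusted p = 0.796), whose untreated difference was -0.08 log2. TXNIP, the thioredoxin inhibitor, had an interaction of 1.74 log2 (SE 0.45, adjusted p = 1): it differed by 0.85 log2 in irradiated and by -0.89 log2 in untreated cells.

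**Figure D3:**
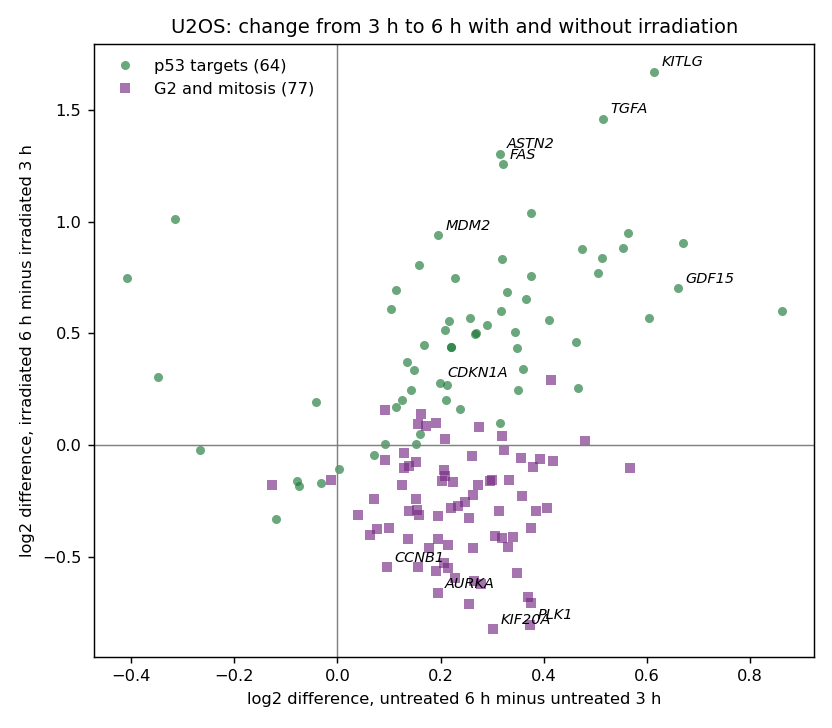
Log2 difference between 6 h and 3 h in irradiated (y axis) and in untreated (x axis) U2OS cells, for the tested p53 targets (green circles, 64 genes) and G2 and mitosis genes (purple squares, 77 genes). Each point is a gene, and no array enters both axes. Most mitosis genes lie right of 0 and below 0, with medians of 0.22 log2 untreated and -0.27 log2 irradiated, and most p53 targets lie above 0, KITLG highest at 1.67 log2.

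Outside these lists, 4 members of other lists passed with the replicate block, and all 4 also passed without replicate 1 of every group. MYC, the growth transcription factor, read 9.23, 8.91 and 8.93 log2 at 6 h and 7.78, 8.52 and 8.27 log2 at 3 h after irradiation, a difference of 0.83 log2 (SE 0.22, adjusted p = 0.323 without and 0.0371 with the block). Its mean relative to untreated cells was -0.60 log2 at 6 h and -0.88 log2 at 3 h. In untreated cells MYC was 0.56 log2 higher at 6 h than at 3 h. INHBA, an activin subunit (0.86 log2), and FST, which binds activin (0.75 log2), rose with the block, and their adjusted p was 0.169 and 0.182 without it. INHBA was also 0.68 log2 higher at 6 h than at 3 h in untreated cells, while FST stood 1.08 log2 above untreated cells at 6 h and 0.75 log2 at 3 h. H2AC6, a histone H2A gene, read 7.39, 7.44 and 7.42 log2 at 6 h and 8.23, 8.13 and 8.23 log2 at 3 h, a difference of -0.78 log2 (SE 0.15, adjusted p = 0.102 without and 0.0163 with the block). Its arrays do not overlap, and untreated cells differed by 0.01 log2.

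Some calls of the block on no list were named after their values were seen. Higher were BCL6, a transcriptional repressor (1.02 log2), ACTA2, smooth muscle actin (1.45 log2), the thrombin receptor gene F2R (0.94 log2) and the cyclin gene CCNG2 (0.87 log2). All 4 also passed without replicate 1 of every group (adjusted p = 0.0346, 0.0356, 0.0412 and 0.00494). Of the 37 genes on no list that the block added, 21 did so. The irradiated arrays of F2R and CCNG2 overlap. In untreated cells the 6 h minus 3 h difference was 0.60 log2 for BCL6, -0.29 log2 for ACTA2, 0.28 log2 for F2R and 0.21 log2 for CCNG2. The 2 dimmer probe sets of BCL6 differed by 0.18 and 0.09 log2. ACTA2 read 7.07, 6.02 and 5.86 log2 at 6 h and 5.30, 4.44 and 4.86 log2 at 3 h after irradiation, with replicate 1 highest in both groups, and its adjusted p was 0.284 without the block and 0.00123 with it. PPARGC1B, a coactivator of nuclear receptors, fell by 1.36 log2 with the block. Its 6 h arrays read 3.35, 3.94 and 3.83 log2, close to the level limit, and its 3 h arrays 4.81, 4.67 and 5.70 log2. PPARGC1B did not pass without replicate 1 of every group (adjusted p = 0.0518).

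With all arrays, no other list had a call in the main fit or with the block alone. Without replicate 1 of every group, 0.573% of all genes rose and 0.382% fell. In that setting 6 of 24 immediate early genes rose (EGR1 by 0.96 log2, KLF6, DUSP1, MYC, FOSL2 and JUND). There 3 of 22 ribosome biogenesis genes fell (NOP16, POLR1C and RRS1), as did SRSF5 and SRSF7 of the splicing list and HK2 and KDM3A of the hypoxia list. RAD51C of the repair list rose. Of all these only MYC also passed with all arrays in the main fit or with the block alone, and only with the block. With block and quantile normalization together and all arrays, KLF6, DUSP1, RRS1 and RAD51C passed too (adjusted p = 0.0238, 0.0223, 0.00288 and 0.0238). In that setting POLR1C, SRSF5, SRSF7, HK2 and KDM3A did not. A dimmer probe set of DUSP1 differed by -0.50 log2 and another by 0.70 log2 with all arrays. For the counts that follow, made with all arrays, the shares over all genes were 55.3% higher, 8.3% separated upward and 5.62% separated downward. Of 21 lysosome and autophagy genes 18 were higher and 6 separated upward (median 0.22 log2, and 0.24 log2 untreated, or 0.13 log2 without untreated 3 h replicate 1), with HEXA, a lysosomal hexosaminidase, at 0.44 log2. Of 24 unfolded protein and stress response genes 20 were higher and 3 separated upward (median 0.18 log2, and 0.23 log2 untreated, or 0.12 log2 without that array). Of 22 ribosome biogenesis genes 17 were lower and 4 separated downward (median -0.18 log2, and 0.10 log2 untreated, which turned to -0.20 log2 without untreated 3 h replicate 1), with RRS1 at -0.51 log2 and the helicase DDX21 at -0.37 log2. Of 24 TGF-beta, BMP and YAP targets 6 separated upward and 1 downward (median 0.21 log2).

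DNA replication genes split evenly, with 6 of 44 separated each way and a median of -0.01 log2. Over all genes 8.3% separated upward and 5.62% downward, and 6549 of 14654 were lower. PIF1, a DNA helicase, read 4.30, 4.51 and 4.70 log2 at 6 h and 5.11, 5.28 and 5.45 log2 at 3 h after irradiation, a difference of -0.78 log2 (SE 0.24, adjusted p = 0.611), and LIG1, the replicative ligase, was 0.42 log2 higher. Of 22 replication-dependent histone genes 16 were lower and 3 separated downward (median -0.06 log2). The NF-kB (-0.02 log2), interferon (0.09 log2), immediate early (0.11 log2), double-strand break repair (0.01 log2), cholesterol (0.04 log2), heat shock (-0.04 log2), splicing (-0.05 log2), hypoxia (0.02 log2), clock (0.12 log2) and matrix (0.07 log2) lists had medians between -0.05 and 0.12 log2, beside 0.02 log2 over all genes.

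**Figure D4:**
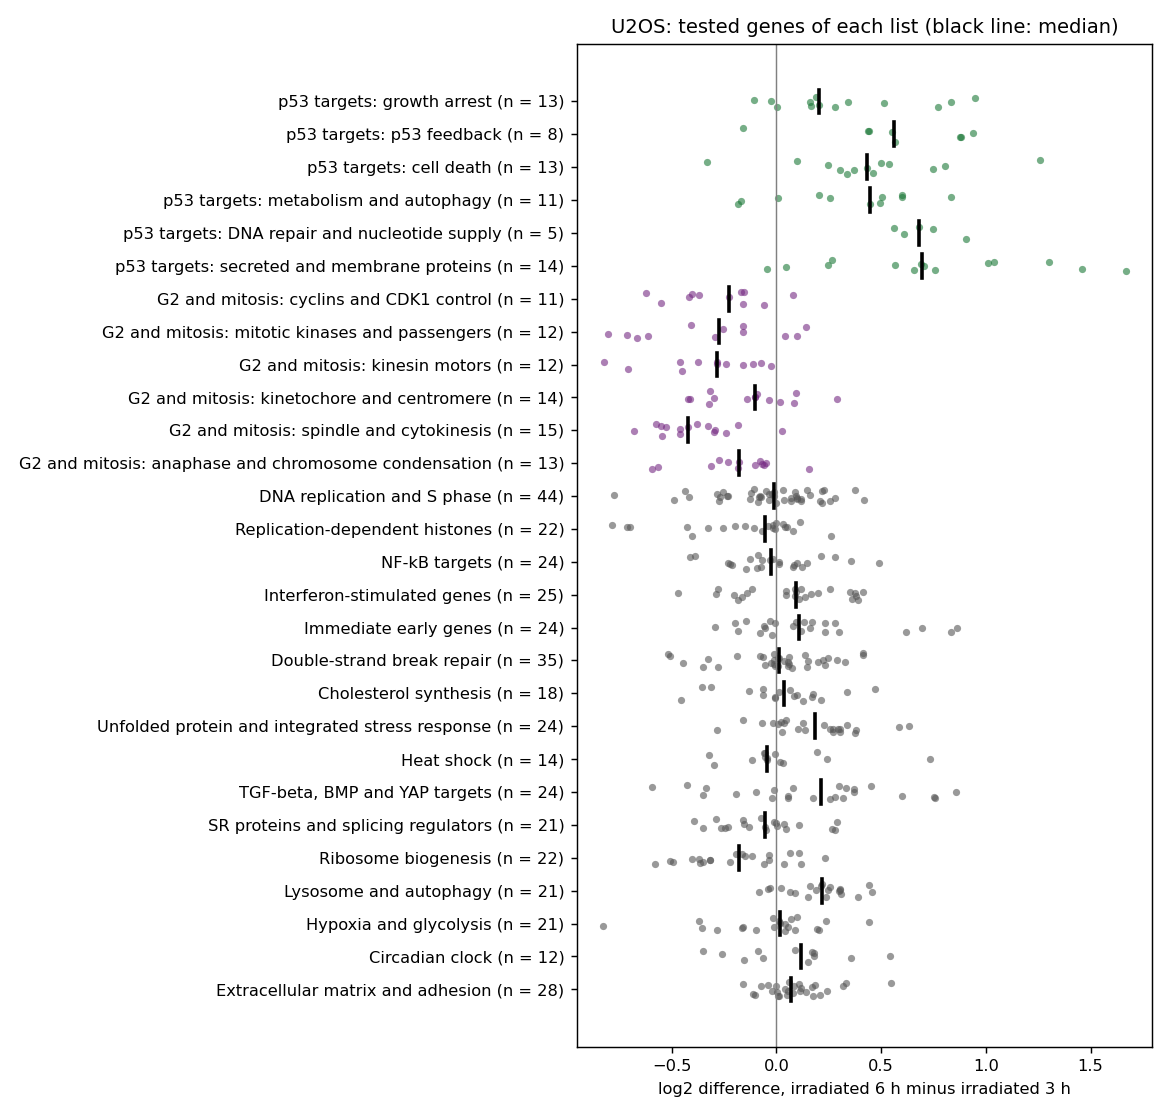
Log2 difference, irradiated 6 h minus irradiated 3 h (x axis), of every tested gene (points) of the p53 target list (green) and the G2 and mitosis list (purple), split by role, and of the other lists (grey), with the number of genes in brackets. The black line is the median. Secreted and membrane p53 targets reach highest (KITLG, 1.67 log2), and spindle and cytokinesis genes have the lowest median (-0.42 log2).

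The change between 3 h and 6 h in U2OS differed from that in TK6 for 55 genes in a fit of all 75 arrays. It was higher for 18 (0.123%) and lower for 37 (0.252%). Genes entered this comparison and that with BJ by their level in U2OS alone. Whether a gene with little change in TK6 or BJ is expressed there was not tested. The change in mock-irradiated cells was not subtracted in any line. With the replicate block 129 were higher and 152 lower. The G2 and mitosis list supplied 12 of the 37, and 22 of the 152 with the block, and the p53 target list 5 of the 18, and 14 of the 129 with the block. KIF20A differed by -0.82 log2 in U2OS and by 1.14 log2 in TK6, a difference of -1.96 log2 between the lines (SE 0.24, adjusted p = 1.64e-07). PSRC1, a spindle protein (-0.30 log2 in U2OS, 1.69 log2 in TK6), CENPE (-0.71 and 1.28 log2) and AURKA (-0.66 and 1.08 log2) had the same opposed signs. The other members were PLK1, ASPM, CDC25C, CENPF, KIF14, SGO2, NDC80 and DEPDC1.

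The p53 targets that passed this test as higher in U2OS than in TK6 without the block were DRAM1 (0.83 log2 in U2OS, -0.45 log2 in TK6), XPC (0.75 and -0.12 log2), KITLG (1.67 and -0.05 log2), FAS (1.26 and -0.23 log2) and PHLDA3 (0.51 and -0.47 log2), a pleckstrin-domain inhibitor of AKT. None passed as lower without the block, and with the block 1 did. For DRAM1 the difference between the lines was 1.29 log2 (SE 0.21, adjusted p = 0.000194). Over the whole list 57 of 64 were above 0 in U2OS and 27 of 64 in TK6, with medians of 0.50 and -0.04 log2. Some targets rose more in TK6, among them ASTN2 (1.30 log2 in U2OS, 2.15 log2 in TK6), TP53I3 (0.54 and 1.37 log2) and ASCC3 (0.61 and 1.02 log2). Their differences did not pass without the block. DDB2 (0.68 log2 in U2OS, 0.55 log2 in TK6) and CDKN1A (0.28 and -0.21 log2) did not pass the test of the difference without the block. Mitosis genes had medians of -0.27 log2 in U2OS and 0.25 log2 in TK6.

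Against BJ fibroblasts the U2OS change differed for 4 genes (0.0273%). PCDH17 (1.47 log2 in U2OS, 0.07 log2 in BJ) and ATOSA (1.58 and 0.01 log2) were higher in U2OS, and TMEM216 (-1.08 and -0.04 log2) and CHAC1, a glutathione-degrading enzyme of the stress response (0.30 and 1.93 log2), were lower. None of the 77 mitosis genes and none of the 64 p53 targets passed this test without the block. With the block 6 p53 targets were higher and 2 lower in U2OS, and 0 mitosis genes passed, beside 34 higher and 11 lower of all 14654 genes. The replicate numbers did not pair the BJ arrays, which limits the block counts. The median of the mitosis list was -0.27 log2 in U2OS and -0.68 log2 in BJ, and that of the p53 targets 0.50 log2 in U2OS and 0.05 log2 in BJ. KIF20A differed by -0.82 log2 in U2OS and by -0.84 log2 in BJ.

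**Figure D5:**
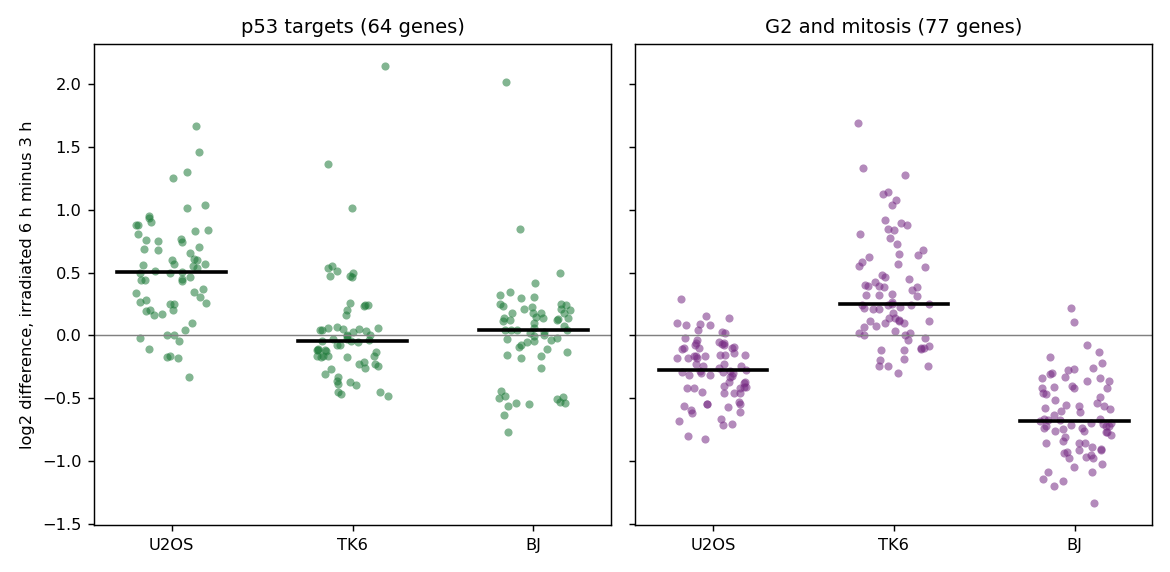
Log2 difference, irradiated 6 h minus irradiated 3 h (y axis), of each tested p53 target (left, 64 genes) and G2 and mitosis gene (right, 77 genes) in U2OS, TK6 and BJ (x axis). Points are genes and the black line is the median. Medians of the mitosis genes are -0.27 log2 in U2OS, 0.25 log2 in TK6 and -0.68 log2 in BJ, and those of the p53 targets 0.50, -0.04 and 0.05 log2.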

How the data were processed

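RNA of all 75 samples was measured on Affymetrix arrays, and the deposited table holds log2 probe set values that the authors made with RMA, per the submitters' processing notes (version and probe definition not given in the sources used here). Array platforms give no read depth, so the number of arrays sets the precision. Of 54675 probe sets, 41097 carry 1 gene symbol in the platform annotation, 1801 several and 11777 none. Each of 19775 genes was read from the probe set that was brightest on average across the series. Genes whose mean over the 15 U2OS arrays passed the 40th percentile of all probe sets (3.52 log2) were tested, 14654 in all. limma 3.58.1 in R 4.3.3 fitted the 5 U2OS group means with a trended variance, and the line comparisons came from a fit of all 75 arrays. Benjamini-Hochberg adjustment ran over all genes tested, with a threshold of 0.05. The fit was tested on simulated data with independent arrays and no shared replicate effect. That simulation cannot show how the fits behave where same-numbered arrays share deviations.

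Replicate numbers in the titles were taken to pair irradiated 6 h and 3 h arrays, because same-numbered deviations from the group means correlated at 0.64, 0.39 and 0.22 in U2OS and at 0.24, 0.32 and 0.19 in TK6. In U2OS the numbers set replicate 1 apart more than they part replicates 2 and 3: 6 h replicate 3 correlated with 3 h replicate 2 at 0.38, and 6 h replicate 2 with 3 h replicate 3 at 0.20. In BJ they did not (0.23, 0.01 and 0.10). The members and gene lists were chosen with earlier results of these data known. Genes named are, in each direction, the 12 called genes that changed most with no overlap between the arrays, filled by the smallest p, the 3 members with the smallest p per list or role, CDKN1A, MDM2, GDF15, PLK1 and CCNB1, and the 4 with the smallest p in each direction of the other contrasts. Other genes were named after their values were seen, to show a role or a call of the replicate block. Motif windows came from RefSeq promoters of GRCh38.p14, 1 per symbol.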

Additional observations from a re-analysis of the deposited data

Results flagged for a closer look

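The change between 3 h and 6 h after irradiation was tested for a difference between U2OS and TK6 (limma, adjusted p under 0.05). Of 14654 genes 55 passed, and 23 of these are among the genes named. Several were named for their p in this same test, so the count of 23 is no separate result. The U2OS change exceeded the TK6 change by 1.72 log2 for KITLG (adjusted p = 0.0124), 1.52 for RGL1, 1.49 for FAS, 1.29 for DRAM1, 1.18 for PARD6G, 1.14 for PCDH17, 0.98 for PHLDA3 and 0.87 for XPC. The U2OS minus TK6 difference was -1.99 log2 for PSRC1, -1.98 for CENPE, -1.96 for KIF20A, -1.74 for AURKA, -1.42 for PLK1, -1.31 for NDC80, -1.07 for CENPF and -0.94 for TMEM216. Among other mitosis genes it was -1.75 log2 for CDC25C, -1.61 for ASPM, -1.31 for DEPDC1, -1.30 for KIF14 and -1.29 for SGO2. HK2, the first enzyme of glycolysis, had -1.48 log2 and KDM3A, a hypoxia-induced histone demethylase, -1.34 log2. HK2 read 5.52, 5.83 and 5.84 log2 at 6 h and 6.03, 6.88 and 6.75 log2 at 3 h in irradiated U2OS cells, a difference of -0.83 log2 beside 0.66 log2 in TK6.

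For 4 genes the U2OS change differed from that in BJ: by 1.57 log2 for ATOSA (adjusted p = 0.00102), 1.40 for PCDH17 (adjusted p = 0.000268), -1.04 for TMEM216 (adjusted p = 0.0420) and -1.64 for CHAC1 (adjusted p = 0.0300). TMEM216 read 3.67, 3.97 and 3.23 log2 at 6 h and 4.47, 4.97 and 4.68 log2 at 3 h in irradiated U2OS cells, so its 6 h level lies near the level limit of 3.52 log2.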

How the results depend on the processing

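Of the 9 genes called between irradiated 6 h and 3 h, the count became 30 with quantile normalization, 4 with a gene's probe sets averaged, 65 with the replicate block, 101 in 1 fit of all 75 arrays, 1 with only the 6 arrays compared and 153 with block and quantile normalization together. It ranged between 0 and 7 when single arrays or replicate numbers were left out: 0 without irradiated 6 h replicate 1, irradiated 6 h replicate 3 or irradiated 3 h replicate 3, 1 without irradiated 6 h replicate 2 and 4 without irradiated 3 h replicate 2. Without replicate 1 of every U2OS group it was 140. The 0 calls in untreated cells became 61 in the fit of 75 arrays and 1 without replicate 1 of every group. The 0 interactions became 1 with the block, 7 in the fit of 75 arrays and 12 with block and quantile normalization. Against TK6, 55 calls became 116 with quantile normalization, 281 with the block, 33 with only the 12 arrays compared and 561 with block and quantile normalization, and between 10 and 68 with arrays left out (35 without TK6 6 h or 3 h replicate 2, 33 without U2OS 3 h replicate 3). Against BJ, 4 became 7 with no level filter, 13 with quantile normalization, 8 with averaged probe sets, 45 with the block (the BJ numbers share only a number) and 107 with block and quantile normalization. With arrays left out the BJ count lay between 0 and 30, the highest without U2OS 3 h replicate 1, with 8 without BJ 3 h replicate 3, 7 without BJ 6 h replicate 1 and 2 without either other BJ 6 h array. The cause of these shifts was not tested. Block with quantile normalization and the fit without replicate 1 of every group were chosen after seeing the data. No called gene changed direction under any setting run. Background-level probe sets limit genes near 3.52 log2.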
